A study of Drosophila melanogaster with 9 samples.

Results

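Of the 9 libraries of the series, 5 were rich and 4 were poor in transcripts of digestive enzymes, and the 2 classes are compared here across all genes with genotype held constant. The gut-rich libraries were control 2, glial 1, glial 3, neuronal 2 and neuronal 3, and the gut-poor libraries were control 1, control 3, glial 2 and neuronal 1. All 9 libraries are members of the comparison, and every genotype holds both classes. The classes were read from the levels of digestive enzyme transcripts in these same libraries. Every difference between them is therefore a description, and no gene is given a p for it. An adjusted p under 0.05 in the edgeR fit serves below only as a filter that chooses genes to describe, and counts of genes under a p of the class difference are descriptions too, not tests.

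The study compared adult Drosophila melanogaster that overexpress Dube3a with a control, by RNA sequencing (Ion Torrent) of 3 libraries for each of 3 genotypes. Dube3a, listed as Ube3a, is the fly homologue of the ubiquitin ligase UBE3A. The control carried uas-Dube3a (Das45) with no driver. The glial genotype was repo>Dube3a, in which the repo driver is active in glia, and the neuronal genotype was elav>Dube3a, named C155 in the column headers, in which the elav driver is active in neurons. All 3 genotypes carried the transgene, and no library had a driver without it. Flies were kept at 25 °C and taken at 3 to 5 days after eclosion. The labels give whole or dissected brain as the tissue, whereas the design text describes pools of 15 to 25 heads per genotype. No source says that the 3 libraries of a genotype came from separate crosses, so each p below measures the spread between these libraries, which may be technical.

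The fly midgut digests and absorbs food. Its absorptive cells, the enterocytes, carry a brush border and are sealed by smooth septate junctions, and they secrete trypsins, chymotrypsin-like Jonah proteases, amylase, maltases, lipases and lysozymes. Intestinal stem cells renew them, and enteroendocrine cells release peptides. Most digestive enzymes are made in large amounts in the midgut, while a brain is not a known source of them.

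The libraries held 35550949 to 60322417 counts. The labelled tissue was checked first. Neuronal markers were abundant in all 9 libraries, with a summed level of 2610 to 5370 CPM (counts per 1000000 counts), and transcripts outside the brain were abundant too. Here and below, CPM of single genes use TMM-scaled library sizes, while sums over a list use unscaled library totals. The rhodopsin gene ninaE stood at 29100 to 44300 CPM, and the eye list summed to 45800 to 72100 CPM. Muscle genes summed to 12700 to 22100 CPM, and the 3 yolk protein genes, made in fat body and ovary, took 4.16% to 14.1% of the counts. The libraries thus held RNA of head tissue beyond the brain, including the eye. In bulk RNA, fewer cells of a type and less RNA per cell cannot be told apart.

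Ube3a checks the genotype labels. It stood at 30.6, 33.8 and 39.6 CPM in control 1, 2 and 3, at 220, 189 and 219 CPM in the glial libraries and at 72.8, 61.5 and 76.9 CPM in the neuronal libraries. Both driver genotypes lay above every control, with no overlap between the 3 groups. Its difference between gut-rich and gut-poor libraries was 0.03 ± 0.13 (log2 ± standard error, 5 against 4 libraries).

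The size of the split can be seen in the share of counts taken by 6 digestive lists (trypsins, Jonah proteases, carbohydrate digestion, lysozymes, lipid digestion with sterol uptake, and carboxypeptidases). These hold 79 genes, of which 74 were in the table and 64 passed the filter on low counts. Together they took 7.88% of the counts in control 2, 7.05% and 6.64% in glial 1 and 3, and 8.21% and 5.57% in neuronal 2 and 3. They took 1.52% and 0.498% in control 1 and 3, 0.469% in glial 2 and 1.83% in neuronal 1. Every gut-rich library lay above every gut-poor one, as the choice of classes made certain. The mean log2(CPM + 1) over the 74 genes was taken with unscaled library totals. By that mean the gut-rich library nearest the limit was glial 3 at 4.59, and the gut-poor one was neuronal 1 at 3.74. On the first principal component of the 2000 most variable genes, which held 42.4% of their variance, the gut-rich libraries lay between 20.55 and 40.22 and the gut-poor ones between -54.79 and -9.93.

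Trypsin genes, whose products cut food proteins after lysine and arginine, included some of the most counted transcripts. The gene betaTry stood at 17700 CPM in control 2, 13100 and 18200 CPM in glial 1 and 3, and 18100 and 12300 CPM in neuronal 2 and 3. It stood at 3230 and 660 CPM in control 1 and 3, 643 CPM in glial 2 and 2530 CPM in neuronal 1. All gut-rich libraries were above all gut-poor ones, and control 1 was the highest of the gut-poor libraries. The log2 difference was 3.37 ± 0.58. The difference was 3.13 ± 0.45 for alphaTry, 3.57 ± 0.51 for epsilonTry and 2.78 ± 0.48 for kappaTry. Of 10 trypsin genes tested, these 4 passed the filter, beside 1.85% of all genes tested, and the list's median was 2.96 against -0.015 over all genes. The genes alphaTry, betaTry and epsilonTry lie on arm 2R, and alphaTry and betaTry are near-identical copies, so reads may have been split between them.

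Jonah genes encode small serine endopeptidases of the midgut lumen. Jon99Ciii stood at 11900 CPM in control 2, 11300 and 13100 CPM in glial 1 and 3, and 16000 and 7780 CPM in neuronal 2 and 3. Its levels were 2750 and 572 CPM in control 1 and 3, 500.0 CPM in glial 2 and 2040 CPM in neuronal 1. The order of the libraries was much as for betaTry, again without overlap of the classes. The log2 difference was 3.24 ± 0.61. Jon65Aiii and Jon65Aiv differed by 3.11 ± 0.51 and 3.37 ± 0.53. Of 12 Jonah genes tested 9 passed the filter, with a list median of 3.17. Jon99Cii and Jon99Ciii are near-identical copies, so their separate values are uncertain.

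In 10 of the 12 Jonah genes tested all gut-rich libraries were above all gut-poor ones, beside 3.77% of all genes tested. Jon25Biii was not among these 10, and it stood at 42.2 and 166 CPM in glial 1 and 3, at 6.0 CPM in control 2, and at 14.4 and 2.32 CPM in neuronal 2 and 3. In the gut-poor libraries it was 2.84 CPM in glial 2, 1.11 CPM in neuronal 1, 0.0482 CPM in control 3 and 0 in control 1. The classes did not overlap within any genotype, but neuronal 3 lay below glial 2. Its difference was 4.59 ± 0.90.

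Among enzymes of carbohydrate digestion, maltase and mannosidase genes differed most. Mal-A1, a maltase, stood at 137 CPM in control 2, 914 and 223 CPM in glial 1 and 3, and 162 and 789 CPM in neuronal 2 and 3. In the gut-poor libraries it stood at 7.03 and 10.5 CPM in control 1 and 3, 26.8 CPM in glial 2 and 98.5 CPM in neuronal 1. The gut-rich libraries were all higher, though their own values spread widely. The difference was 3.48 ± 0.67. Mal-A1 overlaps Cyp4e1 in the annotation, and the sources used here do not say how strand was counted.

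LManV, an alpha-mannosidase gene, had the largest difference of all genes past the filter, 5.69 ± 1.02, at low levels. It was at 19.9 CPM in control 2, 13.7 and 3.23 CPM in glial 1 and 3, and 1.28 and 6.98 CPM in neuronal 2 and 3, against at most 0.843 CPM in the gut-poor libraries and 0 in control 1 and neuronal 1. The amylase genes Amy-p and Amy-d, near-identical copies, differed by 2.38 ± 0.72 and 2.21 ± 0.55 and did not pass the filter. In neuronal 1 Amy-p stood at 1320 CPM, close to the 1470 CPM of glial 3. Of 15 genes tested in the list 2 passed the filter, and its median was 2.70.

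Lysozymes, which break down bacterial cell walls, passed the filter in 5 of 6 genes tested, with a median of 2.89. LysD stood at 652 CPM in control 2, 1160 and 1310 CPM in glial 1 and 3, and 1380 and 542 CPM in neuronal 2 and 3, against 94.0 and 42.3 CPM in control 1 and 3, 55.7 CPM in glial 2 and 317 CPM in neuronal 1. The classes did not overlap, and neuronal 1 stood highest among the gut-poor libraries. LysB, LysD and LysE are near-identical neighbours, and all lysozyme genes named here lie within the span of mwh, so their separate values are uncertain.

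The levels of LysE and LysP in these libraries differed between genotypes as well as classes. In edgeR fits with genotype only, neither was called against control. The adjusted p was 0.43 in glial and 0.52 in neuronal for LysE, and 0.29 and 0.48 for LysP. LysE was not called with gut class in the model either. LysE stood at 542 and 441 CPM in glial 1 and 3 and at 223 CPM in control 2, but at 40.0 and 22.5 CPM in neuronal 2 and 3, near the 44.0 CPM of control 1. LysP, known for its expression in the salivary gland, stood at 15.4 and 8.79 CPM in neuronal 2 and 3 and 3.93 CPM in control 2. In the glial libraries LysP was at 0.183, 0 and 0.129 CPM, with 12, 0 and 4 counts, whether the library was gut-rich or not. The remaining gut-poor libraries held 0.132, 0.120 and 0.462 CPM.

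Lipases and sterol-binding proteins take up dietary fat. CG6295, of the lipase family, stood at 1310 CPM in control 2, 1240 and 1370 CPM in glial 1 and 3, and 926 and 747 CPM in neuronal 2 and 3. Its gut-poor levels were 301 and 72.7 CPM in control 1 and 3, 43.4 CPM in glial 2 and 158 CPM in neuronal 1. No gut-poor library reached the gut-rich range, and the difference was 3.23 ± 0.58. Npc2f, of the NPC2 family of sterol-binding proteins, differed by 3.52 ± 0.54. The more counted Npc2g and Npc2h differed by -0.20 ± 0.12 and 0.16 ± 0.40 and did not pass. Of 15 genes tested 2 passed the filter, and the median was 2.06.

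Of 6 carboxypeptidase genes 1 passed the filter, CG8562, at 3.46 ± 0.56, and the list's median was 2.0. The more counted CG12374 stood between 3540 and 5640 CPM in the gut-rich libraries. It stood at 577 and 396 CPM in control 1 and 3, 152 CPM in glial 2 and 1770 CPM in neuronal 1. The classes did not overlap, but the spread was wide, with a difference of 2.99 ± 0.62. Of 8 genes of the peritrophic matrix, the lining of the midgut lumen, the mucin gene Muc68E passed at 3.13 ± 0.55.

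**Figure D1:**
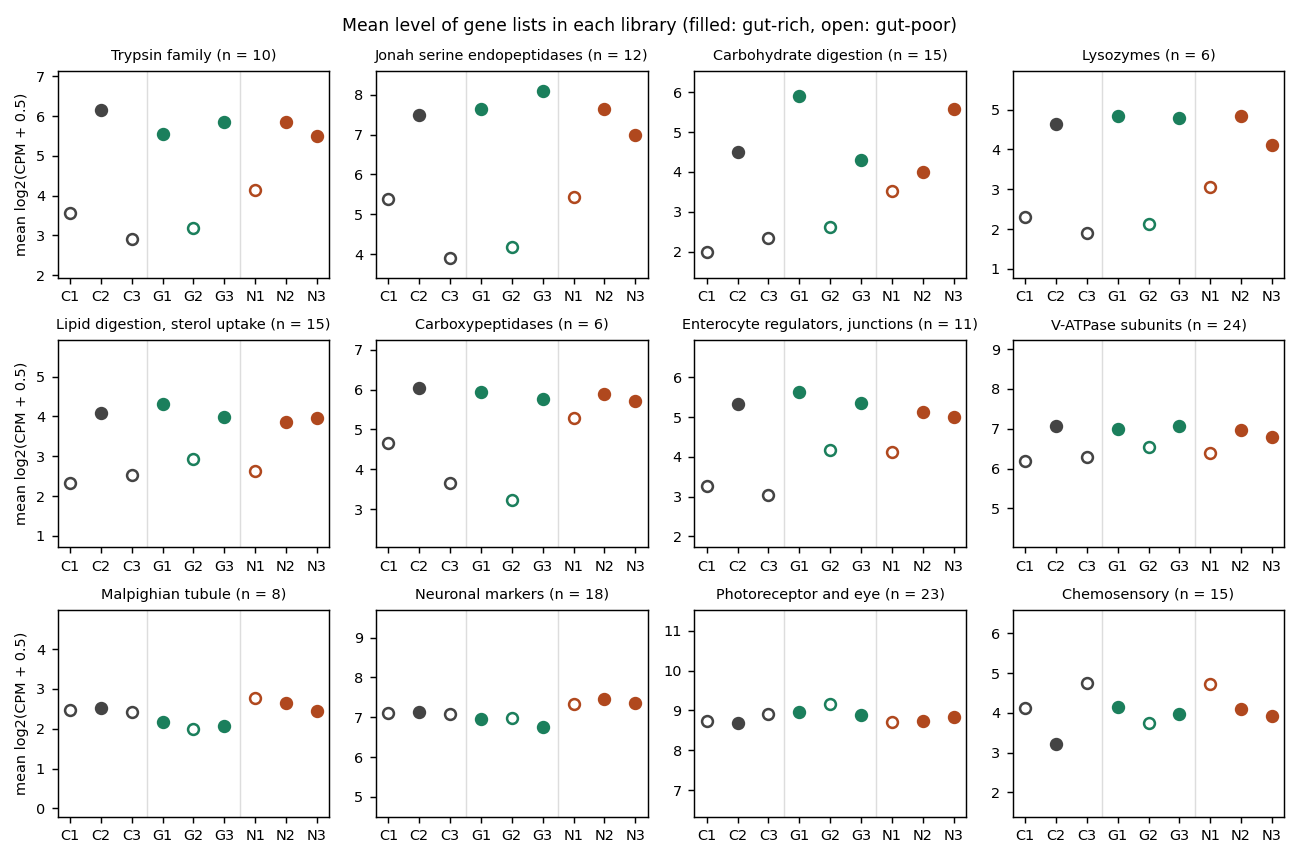
Mean log2(CPM + 0.5) over the tested members of 12 gene lists (y axis, the same span in each panel) in the 9 libraries (x axis: C control, G glial, N neuronal, with the replicate number). Each point is 1 library, filled if gut-rich and open if gut-poor. In the trypsin panel the gut-rich libraries lie between 5.5 and 6.16 and the gut-poor ones between 2.92 and 4.15, while in the neuronal panel all 9 lie between 6.75 and 7.45.

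Over the 6 digestive lists 23 of 64 genes tested passed the filter, beside 1.85% of all genes tested. This count rested on single libraries. It was 1 without control 2, 3 without glial 2, 8 without glial 3 and 15 without neuronal 2. With the share of yolk protein counts as a further term it was 12.

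Of 11 tested genes for regulators and junction or brush border proteins of the enterocyte, which are no digestive enzymes, 5 were higher past the filter. Over all genes tested that share was 1.85%. The transcription factor gene nub, whose product Pdm1 marks enterocytes, stood at 14.3 CPM in control 2, 14.9 and 17.5 CPM in glial 1 and 3, and 18.7 and 13.3 CPM in neuronal 2 and 3. In the gut-poor libraries it stood at 2.83 and 2.55 CPM in control 1 and 3, 4.12 CPM in glial 2 and 6.68 CPM in neuronal 1. The classes did not overlap, and neuronal 1 was again the highest gut-poor library. The difference was 1.87 ± 0.22.

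The midgut gene mex1 stood at 17.7 CPM in control 2, 26.3 and 13.9 CPM in glial 1 and 3, and 16.0 and 11.9 CPM in neuronal 2 and 3, and at 0.723 to 4.12 CPM in the gut-poor libraries. Its difference was 3.05 ± 0.45. For mesh, which encodes a smooth septate junction protein, the difference was 2.53 ± 0.43. For Myo31DF, the myosin gene whose enhancer trap is a common enterocyte driver, it was 1.09 ± 0.11, from levels of 48.4 to 70.3 CPM in the gut-poor and 109 to 175 CPM in the gut-rich libraries. The fifth past the filter was the septate junction gene Ssk. The list's median was 1.77, with 10 of 11 genes above 0 and a lowest value of -0.12.

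The proton pump V-ATPase acidifies compartments in most cells and is abundant in acid-secreting cells of the midgut. Vha100-5, one of several genes for its membrane subunit a, stood at 209 CPM in control 2, 295 and 228 CPM in glial 1 and 3, and 181 and 166 CPM in neuronal 2 and 3. It stood at 19.8 and 15.9 CPM in control 1 and 3, 5.75 CPM in glial 2 and 61.1 CPM in neuronal 1. The classes were far apart, at 3.22 ± 0.61. Vha68-2, for the catalytic subunit, also expressed outside the gut, differed less, by 1.04 ± 0.15, from 244 to 423 CPM in the gut-poor and 520 to 881 CPM in the gut-rich libraries. VhaAC45 and VhaPPA1-1 differed by 0.71 ± 0.14 and 0.62 ± 0.11. These 4 of 24 V-ATPase genes passed the filter, beside 1.85% of all genes tested, and the list's median was 0.38. In 9 of 24 all gut-rich libraries were above all gut-poor ones, beside 3.77% of all genes tested.

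Lists of other gut cells, tubules and head tissues had no gene past the filter in either direction. Intestinal stem cell genes had a median of -0.07 over 6 genes and 1 gene higher at an unadjusted p under 0.05. Enteroendocrine peptide genes had a median of 0.03 over 9 and 1 gene higher, though brain neurons also express several of both lists. Malpighian tubule genes had a median of -0.12 over 8 genes and 0 genes at an unadjusted p under 0.05 in either direction. The sum of this list was 91.8 to 203 CPM in the gut-poor and 92.9 to 151 CPM in the gut-rich libraries. The trunk Hox genes, which mark segments behind the head, summed to 1.24 to 1.73 CPM in the gut-poor and 1.5 to 2.52 CPM in the gut-rich libraries.

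Neuronal markers had a median difference of 0.00 over 18 genes and glial markers 0.05 over 15. The eye list had a median of -0.08 with 3 of 23 genes above 0, the muscle list -0.24 with 2 of 18 above 0, and the chemosensory list -0.64 with 1 of 15 above 0. The last 2 lists had 2 genes each lower at an unadjusted p under 0.05, the eye list 0. The odorant-binding protein gene Obp56d stood at 55.3 CPM in control 2 against 94.1 and 110 CPM in control 1 and 3, and at 145 and 126 CPM in neuronal 2 and 3 against 221 CPM in neuronal 1. In glial 1 and 3 it was 51.0 and 63.1 CPM against 71.7 CPM in glial 2, a smaller gap in the same direction. Fat body genes had a median of 0.06 over 17 genes. Yolk protein counts were not ordered by class, at 8.62%, 4.16%, 12.5%, 7.24% and 7.08% in the gut-rich and 14.1%, 9.26%, 13.5% and 6.34% in the gut-poor libraries. The part of these tissues in the gut difference was not tested.

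**Figure D2:**
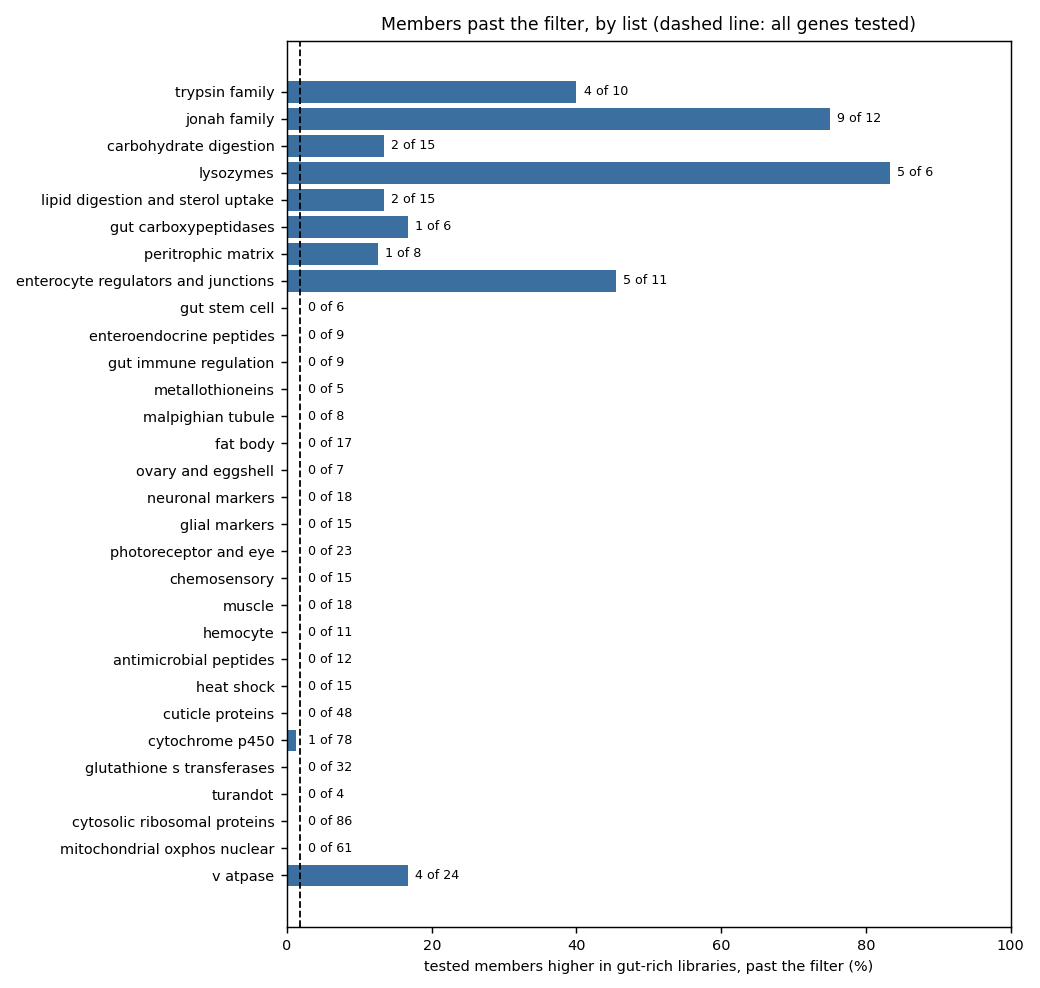
Share of the tested members of each list (x axis, percent) that were higher in gut-rich libraries and passed the filter. The number of genes is written at each bar, and lists with fewer than 4 tested genes are left out. The dashed line is the share over all genes tested, 1.85%, and 9 of 12 Jonah genes and 5 of 6 lysozyme genes lie far beyond it by the choice of the classes, while most other tissue lists stand at 0.

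Across all 11430 genes tested, 211 were higher and 0 lower in gut-rich libraries past the filter, 1.85% and 0%. At an unadjusted p under 0.05 edgeR had 774 genes higher and 321 lower, DESeq2 had 433 and 29 past an adjusted p of 0.05, and limma-voom had 209 and 0. With scaling by library totals, which moved the median of all genes to -0.12, 154 genes were higher and 1 lower. The count of 211 fell to 10 without control 2, the only gut-rich control library, to 121 without glial 2 and to 127 without glial 3.

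The 211 genes differed by 0.60 to 5.69 on the log2 scale, with a median of 2.51. Of them 191 differed at least 2-fold and 65 at least 8-fold. In the gut-poor libraries 34 had a mean under 1 CPM, 92 a mean of 1 to 10 CPM and 85 a mean of at least 10 CPM. The 20 genes that differed by less than 1 had a median of 29.7 CPM in the gut-poor libraries, and the 57 that differed by 3 to 4 had a median of 2.83 CPM. Together the 211 genes took 6.06% to 9.17% of the counts in the gut-rich and 0.652% to 1.90% in the gut-poor libraries. Of these genes 207 were protein coding, 34 were in any of the lists and 177 in none.

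Several of the 15 largest differences were in genes outside the lists. Bace, which encodes an aspartic protease and overlaps Dh31 in the annotation, stood at 2300 CPM in control 2, 2930 and 3830 CPM in glial 1 and 3, and 2880 and 2490 CPM in neuronal 2 and 3. In the gut-poor libraries Bace stood at 38.2 and 127 CPM in control 1 and 3, 144 CPM in glial 2 and 441 CPM in neuronal 1. Among the gut-poor libraries control 1, the highest for betaTry, was the lowest for Bace. The difference was 3.95 ± 0.53.

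Pebp1, of the phosphatidylethanolamine-binding protein family, stood at 699 CPM in control 2, 519 and 855 CPM in glial 1 and 3, and 910 and 297 CPM in neuronal 2 and 3, and at 20.8 to 62.0 CPM in the gut-poor libraries. It differed by 3.91 ± 0.44. The other 10 of the 15 outside the lists are genes known by number only. Their largest differences were 4.94 ± 0.93 for CG4830, 4.7 ± 0.57 for CG9981, 4.50 ± 0.50 for CG4563 and 4.14 ± 0.67 for CG8774. Their smallest was 3.77 ± 0.58 for CG31198. Levels behind the largest were low. Gut-poor and gut-rich means were 1.18 and 26.0 CPM for CG4830 and 0.0286 and 0.875 CPM for CG9981. For CG4563 they were 0.802 and 21.1 CPM, and for CG8774 0.191 and 3.73 CPM. The gene whe had the second largest difference of all 211, 5.28 ± 1.03, but its classes overlapped within glial. It stood at 5.5 CPM in control 2 and 4.22 and 1.33 CPM in neuronal 2 and 3, at 0, 0 and 0.097 CPM in glial 1, 2 and 3, and at no more than 0.385 CPM in the other gut-poor libraries. Of 78 cytochrome P450 genes, Cyp4ae1 alone passed the filter, at 1.25 ± 0.19.

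**Figure D3:**
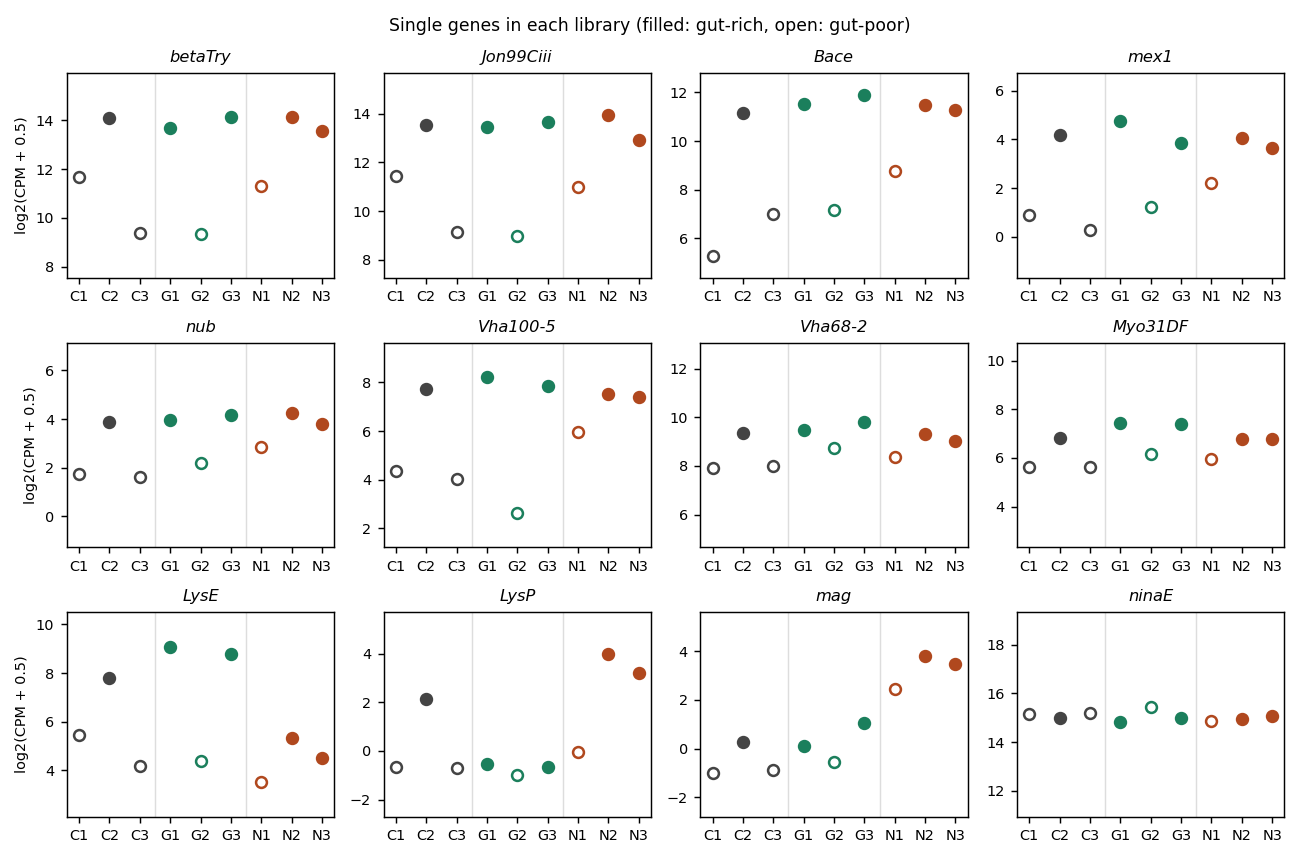
Levels of 12 genes as log2(CPM + 0.5) (y axis, the same span in each panel) in the 9 libraries (x axis: C control, G glial, N neuronal). Filled points are gut-rich and open points gut-poor libraries. The classes are apart for betaTry, Bace, nub and Vha100-5, LysP is low in all 3 glial libraries, mag is highest in the neuronal libraries, and ninaE varies only from 29100 to 44300 CPM.

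The 3 genotypes share no library, so the difference was also taken within each as a difference of mean log2(CPM + 0.5), 1 library against 2, with no test. In control 479 genes were at least 2-fold higher in the gut-rich library, 4.19% of those tested, in glial 547, 4.79%, and in neuronal 264, 2.31%. At least 2-fold lower were 59, 31 and 64 genes, or 0.516%, 0.271% and 0.56%. In all 3 genotypes 204 genes, 1.78%, were higher and 0 lower by that fold. Of the 479 genes of control, 384 (80.2%) were also 2-fold higher in glial and 239 (49.9%) in neuronal. Those 239 were 90.5% of the neuronal genes, and the 384 were 70.2% of the glial genes.

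Genes lower in the gut-rich libraries were shared less, with 0 in both control and glial, 15 in both control and neuronal and 0 in both glial and neuronal. All 211 genes past the filter had the same sign in the 3 genotypes, and 210 had no overlap of the classes within any genotype, beside 7.58% of all genes in the same direction and 5.93% in the other. In 199 all gut-rich libraries were above all gut-poor ones, beside 3.77% of all genes, and 0.927% the other way. Since the same fit chose these genes, nothing is read from those counts.

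The median difference over the 211 genes was 2.58 in control, 2.17 in glial and 1.42 in neuronal. The gut-poor neuronal library, neuronal 1, was the richest of its class on the mean of the digestive lists. A test of whether the difference between classes varies with genotype, the interaction in edgeR, called 0 genes, with a smallest adjusted p of 0.096 and 406 genes, 3.55%, at an unadjusted p under 0.05. Among the 211 genes, 85, or 40.3%, were at an unadjusted p under 0.05 in it. Those genes were chosen by their class difference in the same libraries, so that share is a description. The count of 0 does not show that the difference is alike in the 3 genotypes. Without control 1 the interaction called 72 genes and without control 3 it called 71, so the count of 0 rested on both gut-poor control libraries.

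**Figure D4:**
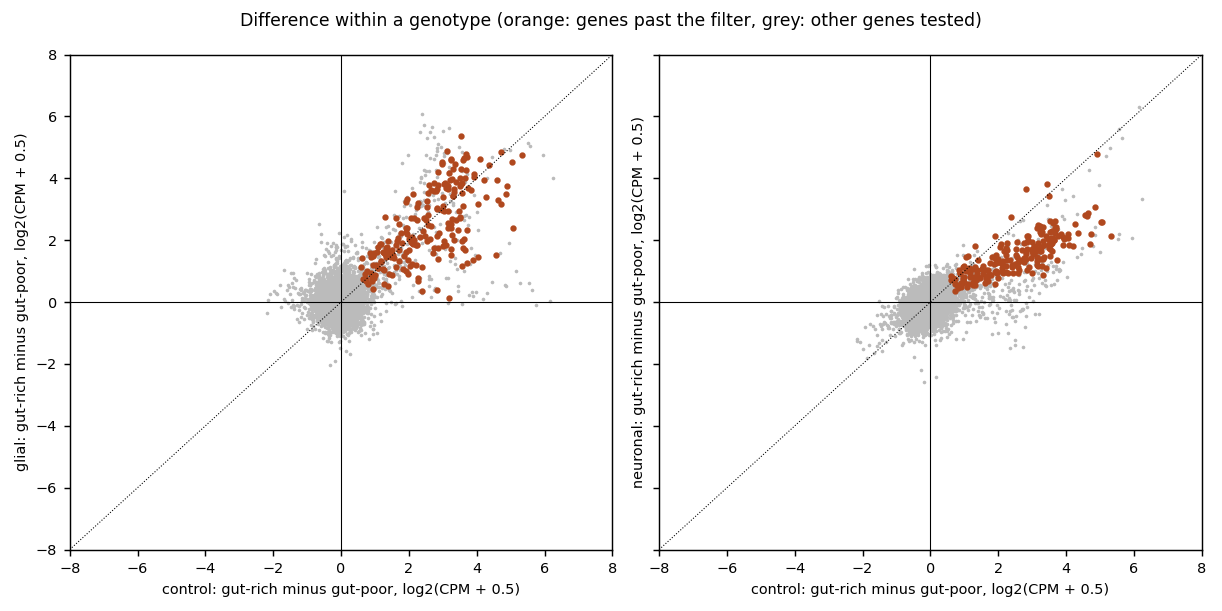
Difference between gut-rich and gut-poor libraries within control (x axis) and within glial or neuronal (y axes), each in log2(CPM + 0.5) units. Each point is a gene, orange for the 211 past the filter and grey for other genes tested, and the dotted line marks equal differences. Orange points scatter around the line for glial and lie below it for neuronal, with medians of 2.58, 2.17 and 1.42 in control, glial and neuronal.

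The classes are spread unevenly over the genotypes, with 1 gut-rich library in control and 2 in each of the others. The genotype comparisons of the study were therefore fitted with genotype only and again with gut class as a further term. Between glial and control 505 genes, 4.42%, changed with genotype only, 290 higher (2.54%) and 215 lower (1.88%). With gut class 462 genes, 4.04%, changed, 274 higher (2.4%) and 188 lower (1.64%), and 397 were called in both fits. With library totals as the scaling 126 of 281 changed genes were higher with genotype only, and 116 of 242 with class. The count of 462 was 216, 86 and 303 without control 1, 2 and 3, 196 and 266 without glial 2 and 3, and 303 without neuronal 3. The count of 505 was 181, 296 and 283 without control 1, 2 and 3, 254 without glial 3 and 334 without neuronal 3.

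Between neuronal and control 81 genes, 0.709%, changed with genotype only, 35 higher (0.306%) and 46 lower (0.402%), or 27 and 17 by library totals. With class 83 genes, 0.726%, changed, 41 higher (0.359%) and 42 lower (0.367%), and 62 were called in both. The count of 81 was 28, 47 and 41 without control 1, 2 and 3, 52 without glial 2, and 33, 26 and 16 without neuronal 1, 2 and 3. The count of 83 was 15, 2 and 42 without control 1, 2 and 3 and 5, 23 and 13 without neuronal 1, 2 and 3. Ube3a was higher in glial by 2.59 ± 0.15 with genotype only (edgeR adjusted p = 8.4e-05) and by 2.58 ± 0.16 with class (adjusted p = 0.00022). In neuronal it was higher by 1.02 (adjusted p = 0.014) and by 1.01 ± 0.15 (adjusted p = 0.026). In the fit with class, the adjusted p in neuronal passed 0.05 on leaving out control 1 (0.103 at 0.94), control 2 (0.247 at 0.95), neuronal 1 (0.31 at 0.94) or neuronal 3 (0.103 at 0.96), with library totals (0.0994 at 1.10), and with the replicate number as a block (0.0514 at 1.01).

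The fitted genotype differences of the gut genes were smaller with class in the model, which follows from how they were chosen and nothing is read from it. The median log2 fold change of the 211 genes between glial and control went from 1.0 to 0.46, and between neuronal and control from 0.65 to 0.36. The digestive lists went from 0.70 to 0.05 and from 0.53 to 0.20, while the median over all genes stayed at 0.01 and 0.00. The standard error of the 211 genes with class had a median ratio of 0.45 to that with genotype only, against 1.06 over all genes. The 211 genes were chosen by the same fit for a large class difference and a small residual spread, and the digestive lists set the classes.

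With genotype only, edgeR called 0 of the 211 genes in either comparison. At an unadjusted p under 0.05 it had 19 in glial and 2 in neuronal, DESeq2 called 8 and 1, and limma-voom 0 and 0. With class, edgeR called 18 in glial, 8.53% beside 4.04% of all genes, and 2 in neuronal, 0.948% beside 0.726%. DESeq2 called 37 and 13 with class, and limma-voom 14 and 1. These p are too small to the extent that the genes were chosen for a small residual spread. Of the 18 calls 15 were lost without at least 1 library, as were both neuronal calls, for AOX1 and Ugt37C2. The 3 kept without each library in turn were AOX1, LysP and Ugt37A3. The same fit chose all of these genes, and LysP and LysS, both among the 18, belong to the lists behind the classes. Nothing is therefore read from the kept calls.

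AOX1, an aldehyde oxidase gene, stood at 422, 196 and 479 CPM in glial 1, 2 and 3, at 68.0, 137 and 64.6 CPM in control 1, 2 and 3, and at 116, 274 and 369 CPM in the neuronal libraries. Glial libraries lay above the control libraries of either class. The change from control to glial was 2.02 ± 0.50 with genotype only (edgeR adjusted p = 0.056) and 1.60 ± 0.17 with class. No p with class is given for AOX1 or Ugt37A3, since the same fit chose both genes for a small residual spread. Ugt37A3, a UDP-glycosyltransferase gene, stood at 28.6, 14.6 and 34.2 CPM in glial and 2.56, 9.64 and 2.19 CPM in control, without overlap. It was higher in glial by 2.43 ± 0.68 with genotype only (edgeR adjusted p = 0.086) and by 2.14 ± 0.28 with class.

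LysP was among the 18 with a lower fitted level in glial. It is one of the lysozyme genes whose levels belong to the digestive lists behind the classes, so no p is given for it. The glial libraries held 12, 0 and 4 counts, the gut-poor control libraries 5 and 5, and control 2 held 133. Glial and gut-poor control libraries were at a like low level, and control 2 stood above them.

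The lipase gene mag (magro), of the lipid list, separated neuronal from the other genotypes. It stood at 4.98, 13.4 and 10.5 CPM in neuronal 1, 2 and 3 and at no more than 0.71 CPM in control and 1.55 CPM in glial. Even the gut-poor neuronal library lay above the gut-rich libraries of the other genotypes. The change from control was 5.30 ± 1.14 with genotype only (edgeR adjusted p = 0.088) and 5.11 ± 0.68 with class. As a member of the digestive lists, mag also had a part in setting the classes, so no p with class is given for it. It was called with class, and the call was lost without control 1, 2 or 3 and without neuronal 1, 2 or 3. The call was also lost with the replicate number as a block. It overlaps atk in the annotation.

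**Figure D5:**
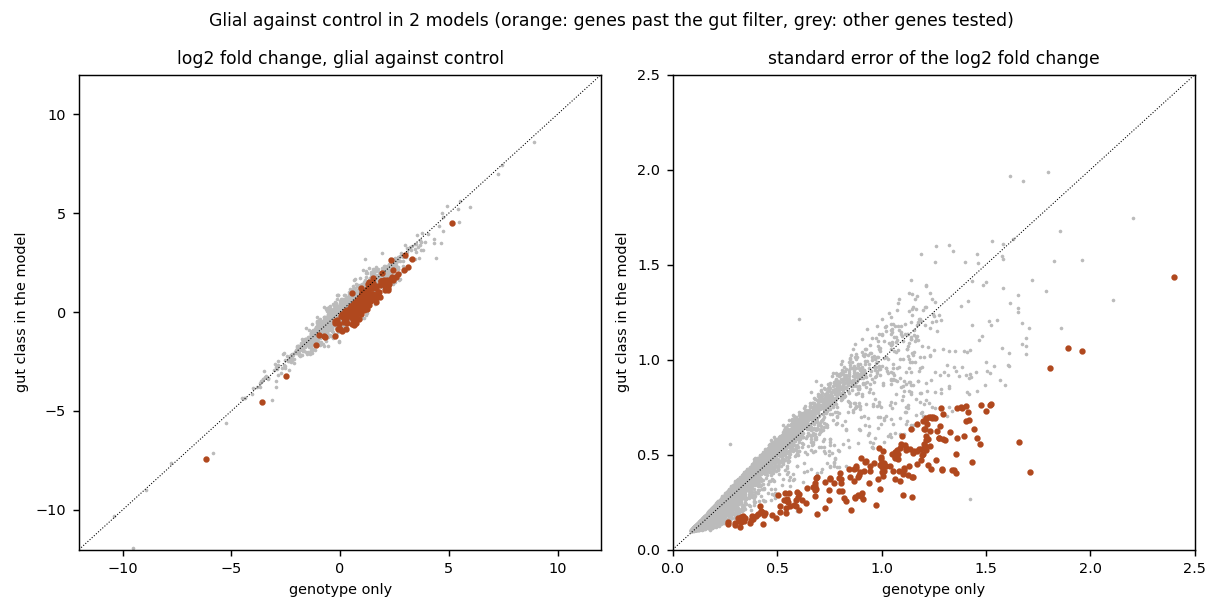
Glial against control with genotype only (x axes) and with gut class in the model (y axes), as log2 fold changes at left and their standard errors at right. Each point is a gene, orange for the 211 past the gut filter and grey for other genes tested, and 4 genes with a standard error over 2.5 are not drawn at right. Orange points lie mostly below the dotted line of equal values in both panels, with a median fold change of 1.0 against 0.46 and a median ratio of standard errors of 0.45.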

How the data were processed

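The authors deposited raw counts per RefSeq transcript, whole numbers with no scaling, for 31838 transcripts in 9 columns, and no column was left out. The submitters' processing notes name STAR and DESeq2 but give no role or version. For the counting program, genome build and strand setting, processing is not given in the sources used here. Counts were summed per gene symbol with the RefSeq annotation of Release 6 plus ISO1 MT. Of the transcripts 31673 matched 15248 genes, and 165, with 0.297% to 0.685% of the counts, stayed as entries of their own. Column headers matched the sample descriptions.

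edgeR 4.0.16 in R 4.3.3 was used with TMM scaling, filterByExpr (minimum count 10, minimum total 15) and the quasi-likelihood test with Benjamini-Hochberg adjustment, and 11430 of 15413 entries were tested. Genotype and gut class were terms of the model, fitted to all 9 libraries. CPM were computed with TMM-scaled library sizes. The fits were run on simulated data with planted changes. Those counts were drawn gene by gene with the same spread for all genes, and no classes were chosen from them. The run therefore cannot speak to the choice of classes. The classes, lists and members were chosen with earlier results of these data known.

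Genes were named by a rule: Ube3a, the 15 largest differences in each direction past the filter with a mean of at least 20 counts and without overlap within any genotype, up to 4 members per list past the filter or 2 by level, the 3 most counted of each digestive list, and up to 5 genes lost or gained per genotype comparison. Ssk, Ugt37C2, whe and the post hoc families were named after their values were seen. DESeq2 1.42.0, limma-voom (limma 3.58.1), other scalings and filters, a replicate block and leaving out each library were tried as alternatives. In the pairing check, same-numbered libraries had correlations of residuals from -0.568 to 0.366. Only genotype means were removed from these residuals, and most same-numbered libraries differed in gut class. The check therefore cannot decide whether the numbers pair the libraries.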

Additional observations from a re-analysis of the deposited data

How the results depend on the processing

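Of the 56 named genes past the gut filter, 0 changed sign under any alternative run. Those genes were chosen for their class difference in the same libraries, so nothing is read from the kept sign. DESeq2 in place of edgeR gave 462 gut genes, 37 of the digestive list genes, 1041 and 388 genes with class in glial and neuronal, and 1110 and 470 with genotype only. Library totals gave 242 and 35 with class and 281 and 44 with genotype only. Gut level as a continuous term gave 326 gut genes, single transcripts 429, and no filter 28 interaction genes. The yolk share as a further term left 12 digestive list genes. With the replicate number as a block, 305 gut genes passed, 380 and 36 genes changed with class in glial and neuronal, and 281 and 15 with genotype only. Leaving out each library in turn gave 10 to 295 gut genes and 1 to 31 digestive list genes. It gave 86 to 466 and 2 to 86 genes with class in glial and neuronal, and 181 to 447 and 16 to 62 with genotype only. The interaction gave 0 to 72 and could not be fitted without control 2, glial 2 or neuronal 1, where a genotype loses a class. The 204 genes 2-fold higher in all 3 genotypes became 152 to 208. The alternatives for that count and for the digestive lists were added after the data were seen. The cause of these shifts was not tested.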

Other observations

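Control 1 held gut transcripts in other proportions than control 3, a pattern singled out after its values were seen and not tested. Of the 13 trypsin and Jonah genes past the filter with a mean of at least 5 CPM, 12 were at least 2-fold higher in control 1. Of 171 gut genes compared, 29 were at least 2-fold higher in control 1, these 12 included, and 13 lower. Of 7706 other genes, 109 were higher and 88 lower. Control 1 also held more digestive counts than control 3, 1.52% against 0.498%. Jon25Bii stood at 196 CPM in control 1 and 26.5 CPM in control 3, and Chs2, a chitin synthase gene of the midgut, at 13.2 and 3.49 CPM. In the other direction CG7542 stood at 1.85 and 14.6 CPM, CG31198 at 6.40 and 24.7 CPM and Bace at 38.2 and 127 CPM. The ratio of betaTry to Bace was 84.4 in control 1 and lay between 4.45 and 7.71 in the other 8 libraries. The ratio of betaTry to Jon99Ciii lay between 1.13 and 1.59 in all 9. By the ratio of betaTry to nub control 1 did not stand apart. That ratio was 1140 in control 1 and 878 to 1240 in the gut-rich libraries. It was 258 in control 3, 156 in glial 2 and 379 in neuronal 1.

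Other gene families were counted after the 211 genes were known, so their counts are a description only, beside 1.85% of all genes tested. UDP-glycosyltransferases, which conjugate foreign compounds, had 7 of 30 tested genes past the filter, among them Ugt37C2 and Ugt303B3. Tetraspanins had 4 of 30, unconventional myosins 3 of 5 (Myo28B1, Myo31DF and Myo61F), drug transporters of the Mdr and Mrp groups 2 of 6, and caspases 2 of 7 (Damm and Decay). The regulator genes vnd, exex, odd and peb, picked because they passed, differed by 0.91 to 2.97. Nervous tissue also uses vnd and exex.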
